A study of Mus musculus with 9 samples.

Results

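The Cish gene of the mouse, the RNAs annotated on the strand opposite to it, Gm17041 and Gm17040, and the related genes Socs2 and Socs3 were followed in muscle of mice fed a high-fat diet with and without L-carnitine. These 5 rows were taken by gene symbol from a table of 19335 rows. They were selected with their values in carnitine-treated mice already seen, so those values are a description without a test. Of the 5, Gm17041 and Gm17040 passed the expression filter, which kept 7523 rows. Cish, Socs2 and Socs3 were counted too rarely for a fitted comparison and are given as counts.

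The mice were C57BL/6J, a common inbred strain, with the genotype given as wild type (WT), and were 9 weeks old when assigned to groups. After 2 weeks of acclimatisation, controls ate a chow with 10% of its energy from fat for 8 weeks and the other mice a high-fat diet with 60%. The third group took L-carnitine, 100 mg/kg/day, with its water beside the high-fat diet. Tissue was taken after a fast of 6 h in every group. Each group has 3 messenger RNA libraries. The muscle is not named and the labels do not say that each library is a separate mouse, so the spread behind the p-values is that of libraries and may be technical. L-carnitine is the carrier on which long-chain fatty acids enter mitochondria. The comparisons ask how muscle differs between the diets and how carnitine alters it on the fatty one.

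The counts summed to 2315985 to 3773649 per library. A count of 3, taken as the most that a count of 0 allows, is 0.795 to 1.30 CPM (counts brought to a shared library size). Intervals cover counting error only. All 20 skeletal muscle fibre markers were detected, and their summed CPM was 62675 to 92666 in controls, 66619 to 82121 under the high-fat diet and 47524 to 55345 with carnitine. The kit keeps the strand of the RNA, and which strand was counted is not stated in the sources at hand. In every library, 81.9% to 88.9% of the counts fell on rows whose exons overlap those of an opposite-strand gene. Among 1615 pairs of a coding and a non-coding row opposite each other with at least 100 counts, the non-coding row held more counts in 1251 (77.5%). Of 13 fibre markers with a tested opposite row, that row held more counts in 10. Ckm had 129073 counts beside 3223906 on A930016O22Rik, and Tnnc2 had 42306 beside 2329413 on Ube2c. Which strand the counts reflect was not tested. Reads of Cish and of the RNAs opposite to it can therefore not be told apart here, and each row is given under the symbol of the table.

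Cish encodes CIS, the founding member of the suppressor of cytokine signalling (SOCS) proteins. Cytokines and growth hormone activate receptor-bound JAK kinases, which phosphorylate STAT transcription factors. STATs switch on SOCS genes, whose products bind the activated receptor or kinase through an SH2 domain and recruit a ubiquitin ligase through the SOCS box, which dampens the signal. CIS and SOCS2 are induced by STAT5 and act on growth hormone and related receptors, and mice lacking Socs2 grow larger than normal. SOCS3 is induced by STAT3 and restrains receptors of the interleukin-6 family and the leptin receptor. In muscle these proteins are also known for restraining insulin and growth factor signalling.

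Gm17041 (ENSMUSG00000090570) is annotated as a long non-coding RNA on the minus strand of chromosome 9, chr9:107177579-107179037 in the GRCm39 coordinates of the table, inside the span of Cish (ENSMUSG00000032578, chr9:107173225-107179983, plus strand). Gm17040 (ENSMUSG00000091366), a transcribed processed pseudogene, lies at chr9:107169634-107174391 on the minus strand and covers the start of Cish. In the GENCODE M21 transcripts, which use the older build GRCm38, all 479 exon bases of Gm17041 are exon bases of Cish read from the other strand. Its exon 2, of 321 bases at chr9:107300380-107300700 (GRCm38), lies wholly in the coding sequence of Cish. Its exon 1, of 158 bases at chr9:107301681-107301838 (GRCm38), holds 0 coding bases of Cish. Gm17040 shares 261 of its 1150 exon bases with Cish. Of the 8 SOCS family rows, Cish was the 1 with a row on the opposite strand.

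**Figure D1:**
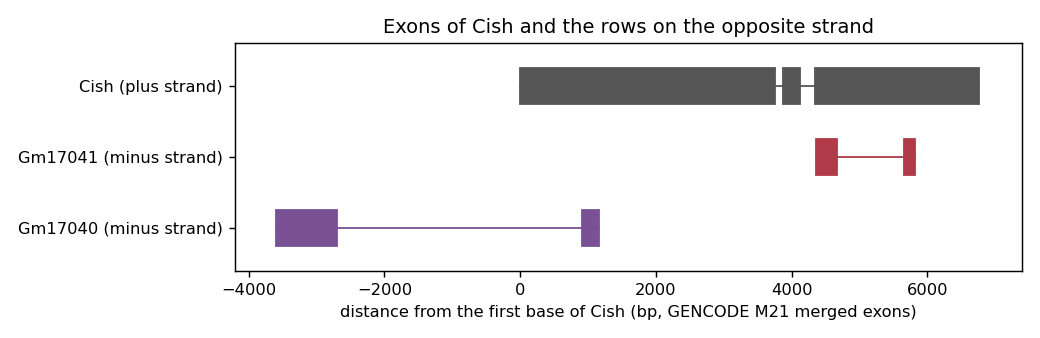
Exons (boxes) of Cish, Gm17041 and Gm17040 by distance in bp from the first base of Cish, from GENCODE M21 with overlapping exons merged. Both Gm17041 exons, at 4354 to 4675 and 5655 to 5813 bp, lie under the last Cish exon, and Gm17040 has 1 exon upstream of Cish and 1, at 906 to 1167 bp, inside it.

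The stretch where the transcripts overlap is printed to show that the 2 rows read the same DNA from opposite strands. It is the first 60 bases of Gm17041 exon 2 and the same 60 bases in Cish, chr9:107300641-107300700 (GRCm38), each 5′ to 3′ on its own strand.
Gm17041 (minus): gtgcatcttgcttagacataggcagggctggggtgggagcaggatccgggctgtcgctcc
Cish (plus): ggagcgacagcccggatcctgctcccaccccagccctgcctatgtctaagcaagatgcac

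STAT factors are known to bind the letters TTCNNNGAA, which are their own reverse complement, so that a single search covers both strands. The promoter windows of RefSeq (GRCm38.p6) ran from 250 bases before to 50 bases after the start. Of the SOCS family, those of Cish, Socs1, Socs3 and Socs4 are reported here, and the other SOCS genes are not covered. The 2 windows with a match are shown in part, with the motif in capitals, since these genes are textbook STAT targets. The Cish stretch is chr9:107296656-107296681 on the plus strand, and the Socs3 stretch is chr11:117969509-117969523 on the minus strand.
Cish: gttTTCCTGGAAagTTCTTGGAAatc
Socs3: gccTTCTTAGAAggg
Cish had 2 matches, at bases 1 to 9 and 12 to 20 from its start, which do not overlap. Socs3 had 1, at -154 to -146, and the windows of Socs1 and Socs4 had 0. Of all 32851 windows, 2726 (8.30%) held at least 1 match and 150 (0.457%) at least 2.

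Gm17041 was lowest in controls, higher on the high-fat diet and highest with carnitine, with no overlap between the groups. It had 34, 29 and 47 counts in controls 1, 2 and 3, 77, 261 and 90 under the high-fat diet, and 375, 1255 and 820 with carnitine. On the scale of TMM-normalised CPM these were 12.4, 14.2 and 15.5, then 27.3, 60.6 and 33.4, then 142.2, 537 and 394. The controls lay close together, high-fat diet 2 stood above the other two of its group, and carnitine 1 was the lowest of the treated libraries yet above every untreated one. The group means were 14.02 ± 1.53, 40.4 ± 17.7 and 358 ± 200.1 CPM (SD, n = 3 each). Carnitine 1, 2 and 3 stood 2.35, 8.87 and 6.51 times above the highest high-fat library.

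Gm17040 followed the same order of libraries for carnitine, at a lower count. It had 10, 7 and 18 counts in controls, 21, 57 and 15 under the high-fat diet and 65, 308 and 137 with carnitine. In CPM it was 3.65, 3.43 and 5.92, then 7.45, 13.2 and 5.57, then 24.6, 132 and 65.9. High-fat diet 3 was below control 3, so the diet groups overlapped, while the carnitine libraries were above all others. Means were 4.33 ± 1.38, 8.75 ± 3.99 and 74.1 ± 54.1 CPM (SD, n = 3 each). Carnitine 1 stood 1.86 times above the highest high-fat library, and carnitine 2 and 3 stood 9.97 and 4.98 times above it.

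On the high-fat diet alone, without carnitine, neither row passed the test across all rows. In edgeR's quasi-likelihood fit, the log2 difference from controls was 1.54 for Gm17041 (SE 0.42, rank 114 of 7523, adjusted p = 0.223) and 1.01 for Gm17040 (SE 0.54, rank 369, adjusted p = 0.834). Of all tested rows, 0.0532% (4, all lower) passed an adjusted p of 0.05 in that comparison, and 475 had an unadjusted p below 0.05. The Gm17041 difference passed without the expression filter (adjusted p = 0.000378), with the 6 libraries of these groups alone (adjusted p = 0.0433, edgeR) and with DESeq2 (adjusted p = 0.0270), and over all alternatives the adjusted p ran from 0.000378 to 0.867. The high-fat libraries also served in the choice of these rows, so this comparison is not independent of it. High-fat diet above control in every library held for Gm17041 and not for Gm17040, against 7.23% of the tested rows.

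With carnitine on the high-fat diet, Gm17041 was higher than on the diet alone by a log2 fold change of 3.13 (SE 0.41), the 6th highest of 7523 rows, and Gm17040 by 3.04 (SE 0.49), the 8th. Against controls the log2 fold changes were 4.67 (SE 0.45) and 4.06 (SE 0.53), ranks 2 and 3. The comparisons share libraries. The median over all tested rows was -0.01 against the diet alone and -0.0047 against controls. Carnitine above both other groups in every library held for both rows and for 2.99% of all tested rows. The order control, then high-fat diet, then carnitine in every library held for Gm17041, 1 of 14 such rows (0.186%). The rows were selected on these contrasts, so nothing is read from these shares. The carnitine comparison against the diet called 0.0532% of rows (3 higher, 1 lower) and that against controls 0.425% (16 higher, 16 lower).

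The share of counts on rows without an opposite-strand row in the table differed between libraries and was lower in carnitine 2 (9.31%), carnitine 3 (9.98%) and control 2 (10.3%) than in the other libraries (12.8% to 15.5%). Carnitine 1 was at 14.1%, with 142.2 CPM of Gm17041, and control 2 had 14.2 CPM. Carnitine 2 and 3 had 537 and 394 CPM. Over all 9 libraries, the log2 CPM of Gm17041 and this share had a Pearson r of -0.58, as a description. The part of this share in the result was not tested beyond the fit that follows. With this share as a covariate, added to the same fit, the log2 fold change of carnitine against the diet was 2.38 (SE 0.47) for Gm17041 and 2.04 (SE 0.55) for Gm17040. Against controls the covariate gave 4.07 (SE 0.47) and 3.22 (SE 0.55). Without carnitine 2, carnitine against the diet was 2.71 (SE 0.37) and 2.32 (SE 0.48), and Gm17040 against controls 3.36 (SE 0.52). The muscle fibre marker sum was also lower in all carnitine libraries, and its part in the result was not tested. In bulk tissue, fewer cells of a type and less RNA per cell cannot be told apart. Of the 20 fibre markers, 13 have a tested row on the opposite strand, which held more counts in 10. For carnitine against the diet 12 of these 13 markers had a log2 value below 0, while 12 of the 13 opposite rows had one above 0. Which strand the marker sum reflects was not tested.

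**Figure D2:**
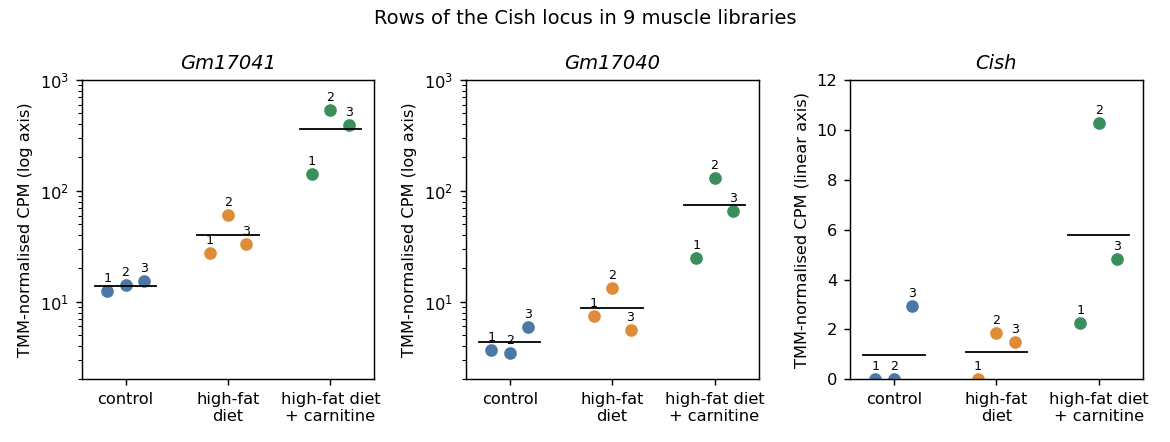
TMM-normalised CPM of Gm17041 and Gm17040 (log axis) and Cish (linear axis) in each library, with the replicate number over the point and the group mean as a black line. Gm17041 separates the 3 groups, Gm17040 separates carnitine from the rest, and Cish with carnitine overlaps control 3.

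The Cish row itself was near the floor. It had 0, 0 and 9 counts in controls, 0, 8 and 4 under the high-fat diet and 6, 24 and 10 with carnitine. Control 3, at 2.96 CPM, was above carnitine 1, at 2.28 CPM, so the groups overlapped. Summed over each group, Cish was at 1.11 CPM in controls (exact Poisson 95% interval 0.508 to 2.11), 1.33 CPM on the high-fat diet (0.687 to 2.32) and 5.36 CPM with carnitine (3.83 to 7.30), intervals of counting error only. In an edgeR fit without the expression filter, the log2 fold change of carnitine against the diet was 2.28 (SE 1.04), with the same sign as for both opposite rows.

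Per length, on the authors' FPKM scale, the Gm17041 level in the carnitine libraries was 308, 1008 and 738, that of Gm17040 22.3, 103 and 51.4, and that of Cish 0.368, 1.44 and 0.672. In controls the FPKM levels were 25.4, 26.1 and 32.8 for Gm17041, 3.11, 2.63 and 5.23 for Gm17040 and 0, 0 and 0.469 for Cish. In all 9 libraries the order was thus Gm17041, Gm17040, Cish. Of the counts of all 3 rows, the Cish row took 9 of 154 in controls (5.84%, exact binomial 95% interval 2.71 to 10.8), 12 of 533 on the high-fat diet (2.25%, 1.17 to 3.90) and 40 of 3000 with carnitine (1.33%, 0.954 to 1.81). All 9 of the control counts came from control 3, and without it the share was 0 of 80 counts, which allows up to 3.75%. With the 3 rows summed to 1, the diet against control gave a log2 value of 1.38 (SE 0.46, adjusted p = 0.464, edgeR), and carnitine against the diet 3.11 (SE 0.45).

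The 5 tested rows whose log2 CPM was most like that of Gm17041 over the 9 libraries were Gm17040 (Pearson r = 0.98), Gm19221 (0.95), Thra (0.95), Gm15856 (0.95) and Flywch1 (0.94). They were picked for this likeness, the 9 libraries share their depth and strand shares, and the correlations are a description. Gm19221, a processed pseudogene on chromosome 12 with no opposite row, was at 3.12 ± 1.13, 7.77 ± 1.07 and 22.9 ± 12.7 CPM (SD, n = 3 each) in control, high-fat diet and carnitine. Thra, the thyroid hormone receptor alpha gene, was at 313 ± 49.1, 393 ± 16.7 and 663 ± 104 CPM. It overlaps 263 bases of Nr1d1, a circadian nuclear receptor gene, on the other strand. Gm15856, opposite the tubulin gene Tuba8 over 368 bases, was at 597 ± 39.4, 626 ± 5.64 and 789 ± 61.8 CPM. Flywch1, which shares 1071 bases with 9530082P21Rik on the other strand, was at 38.1 ± 2.94, 45.3 ± 4.84 and 66.3 ± 8.99 CPM. The rise in means with carnitine was thus smaller in Thra, Gm15856 and Flywch1 than in Gm17041, and Gm19221 lay between.

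**Figure D3:**
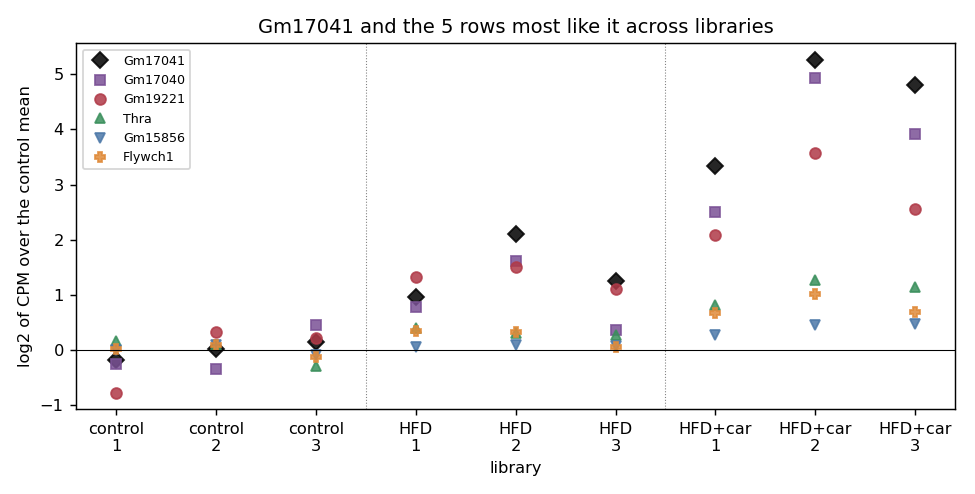
Log2 of CPM over the row's control mean for Gm17041 and the 5 rows most like it, by library. Carnitine 2 is the highest library for Gm17041, Gm17040, Gm19221, Thra and Flywch1, and Gm17041 covers the widest range.

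Genes around the locus were counted rarely too. Within 250 kb of the Cish start the table has 11 rows, of which 6 were tested, Gm17041 and Gm17040 among them. The other 4 rows passed in no comparison by edgeR. These 4 rows had 0 unadjusted p below 0.05, limma-voom called 0, and DESeq2 gave no adjusted p for any of them. For carnitine against the diet, Mapkapk3, a kinase downstream of p38, had a log2 value of -0.44 (SE 0.76, adjusted p = 0.862, edgeR). Tmem115, a Golgi membrane protein gene, had -1.32 (SE 0.81, adjusted p = 0.523, edgeR). The uncharacterised rows 6430571L13Rik and 4930429P21Rik, which lie opposite each other, had 0.68 (SE 0.95, adjusted p = 0.826) and 1.90 (SE 1.14, adjusted p = 0.509, edgeR). The SE of these low rows are wide, so changes of a few fold were not detectable.

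Socs2 (chr10:95221224-95253042, minus strand), the feedback inhibitor of growth hormone signalling, had few counts in every group. There were 5, 2 and 2 counts in controls, 5, 11 and 6 under the high-fat diet and 7, 9 and 1 with carnitine. Carnitine 3 was the lowest library and carnitine 2 at 3.85 CPM the highest, so the groups overlapped. The group sums were 1.11 CPM (exact Poisson 95% interval 0.508 to 2.11), 2.44 CPM (1.53 to 3.69) and 2.28 CPM (1.33 to 3.65). Without the filter the log2 fold changes were 0.90 (SE 1.20) for diet against control and 0.08 (SE 1.15) for carnitine against the diet.

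Beside Socs2 on chromosome 10, without overlap, lies the long non-coding RNA 5730420D15Rik on the plus strand, which was picked after its values were seen. It had 1, 7 and 3 counts in controls, 2, 4 and 2 under the high-fat diet and 6, 18 and 10 with carnitine. The group sums were 1.36 CPM (exact Poisson 95% interval 0.678 to 2.43), 0.886 CPM (0.383 to 1.75) and 4.56 CPM (3.16 to 6.37). Control 2 was above carnitine 1, and the row was below the filter and not tested.

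Socs3 (chr11:117856905-117860873, minus strand), which restrains signalling through gp130 and the leptin receptor, was at the floor. It had 4, 0 and 2 counts in controls, 4, 0 and 0 under the high-fat diet and 0, 2 and 0 with carnitine. At least 1 library of each group had 0 counts. The group sums were 0.740 CPM (exact Poisson 95% interval 0.272 to 1.61), 0.443 CPM (0.121 to 1.13) and 0.268 CPM (0.0325 to 0.969), whose intervals overlap. A difference between the groups was not detectable at these counts, and the part of depth and of the strand counted was not tested.

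The other SOCS genes were also counted rarely. Socs1, the inhibitor of interferon signalling, had 1 count in all 9 libraries, and Socs4 and Socs5, which are less well studied, had 7 and 13. Socs6, which acts on receptor tyrosine kinases, had sums of 20, 48 and 15 counts in control, high-fat diet and carnitine, or 2.47, 5.32 and 2.01 CPM. Its libraries overlapped between groups, with 6.96 CPM the highest on the high-fat diet and 0.428 CPM the lowest with carnitine. Socs7, an adaptor-binding member, was the 1 SOCS row that was tested, at 8.83 ± 8.98, 7.85 ± 2.88 and 8.85 ± 4.74 CPM (SD, n = 3 each). By edgeR the diet against control gave a log2 value of -0.18 (SE 0.64, adjusted p = 0.996) and carnitine against the diet 0.17 (SE 0.64, adjusted p = 0.938).

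**Figure D4:**
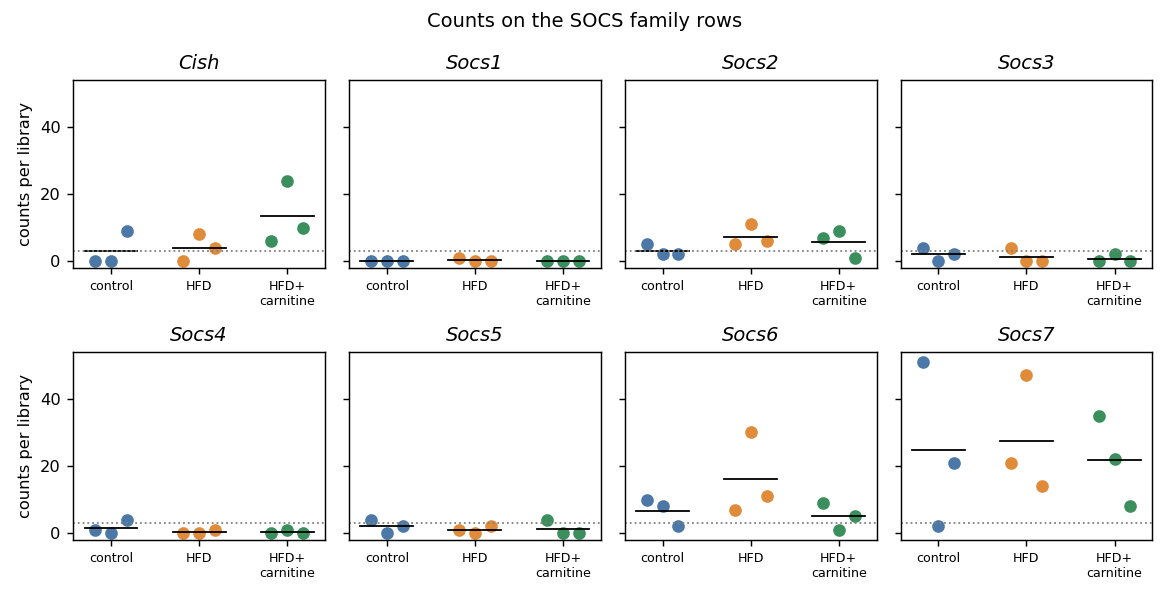
Counts per library on the 8 SOCS family rows, with group means as black lines and a dotted line at 3 counts. Most libraries of Socs1, Socs3, Socs4 and Socs5 sit at or below the dotted line, Socs7 is the highest row, and Cish is highest in carnitine 2 at 24 counts.

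Around these inhibitors, genes of cytokine signalling were compared by role. Of 153 listed genes, 124 are in the table and 48 were tested. The diet comparison called 0 of the 48 by edgeR, with 6 at an unadjusted p below 0.05 beside 475 of all 7523 rows, against 0.0532% of all rows called. DESeq2 and limma-voom called 0 as well, DESeq2 with no adjusted p for 25. Carnitine against the diet also called 0, with 20 higher and 28 lower, 7 at an unadjusted p below 0.05 beside 904 of all 7523 rows, and a median log2 fold change of -0.26 beside -0.01 over all rows. For that comparison DESeq2, with no adjusted p for 37, and limma-voom called 0. Carnitine against control called 2, both lower, against 0.425% of all rows, with a median of -0.30 and 11 at an unadjusted p below 0.05 beside 780 of all 7523 rows. For that comparison limma-voom called the same 2, and DESeq2, with no adjusted p for 23, called these and Igfbp5.

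Among the ligands, 2 of 24 were tested and 0 passed. For carnitine against the diet, interleukin-4 (Il4) had a log2 value of -0.99 (SE 0.87, adjusted p = 0.684, edgeR) and thrombopoietin (Thpo) one of 0.75 (SE 0.70, adjusted p = 0.707). Among the receptors, 7 of 30 were tested and 0 passed. The smallest p was that of Igf1r, the receptor of insulin-like growth factor, at 14.7 ± 6.19, 20.0 ± 6.17 and 30.3 ± 9.31 CPM (SD, n = 3 each), and carnitine had 1.06 against control in log2 (SE 0.40, adjusted p = 0.302, edgeR).

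Of the JAK kinases, Jak1 and Jak2 were tested and neither passed. Jak1, shared by many cytokine receptors, had 20.1, 7.71 and 5.77 CPM with carnitine and 19.5, 16.9 and 33.1 CPM on the diet. Carnitine 1 overlapped the diet group, and the log2 difference was -1.02 (SE 0.45, adjusted p = 0.364, edgeR). Jak2, the kinase of the growth hormone receptor, had -1.24 (SE 0.74, adjusted p = 0.504). Of 7 STAT genes 3 were tested and 0 passed. Stat5b, which carries growth hormone signals to Cish, Socs2 and Igf1, had 46.8, 44.3 and 74.6 CPM on the high-fat diet and 27.3, 25.7 and 24.5 CPM with carnitine. The carnitine libraries were all below the diet libraries, while controls, at 47.1, 23.0 and 52.0 CPM, spanned both. How many of all rows were ordered this way was not counted. Carnitine against the diet gave a log2 value of -1.09 (SE 0.33, adjusted p = 0.226, edgeR), which did not pass.

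In the ubiquitin ligase that the SOCS box recruits, 6 of 8 genes were tested and 0 passed. In both carnitine comparisons, 2 of the 6 were higher and 4 lower. Elob, an elongin of this ligase, had -1.37 (SE 0.50, adjusted p = 0.289, edgeR) for carnitine against control. Rnf7, the RING partner of cullin 5, had -1.13 (SE 0.71, adjusted p = 0.530, edgeR) for carnitine against the diet. Of the other inhibitors 6 of 14 were tested and 0 passed. Sh2b3, an adaptor that dampens JAK2 signals, had 22.7, 32.7 and 29.7 CPM on the diet and 54.6, 45.4 and 45.2 CPM with carnitine. The carnitine libraries were above those of both other groups, which held for 2.99% of all tested rows. The log2 difference from the diet, 0.77 (SE 0.31, adjusted p = 0.325, edgeR), did not pass. The row shares 99 bases with Atxn2 on the other strand. Ptpn1, the phosphatase of JAK2 and the insulin receptor, had 0.66 on the log2 scale (SE 0.76, adjusted p = 0.956, edgeR) for the diet against control.

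Both genes that passed by edgeR are targets, and both fell with carnitine against control. Gadd45g, a stress-response gene from the list of growth hormone and STAT5 targets, had 30.3, 46.0 and 56.6 CPM in controls, 9.58, 17.9 and 24.9 under the high-fat diet and 18.2, 9.42 and 5.29 with carnitine. Every carnitine and every high-fat library was below every control, a pattern that was not counted over all rows. For carnitine against control the log2 value was -1.99 (SE 0.43, adjusted p = 0.0342, edgeR). The high-fat diet alone gave -1.34 (SE 0.41, adjusted p = 0.260, edgeR), and carnitine against that diet -0.65 (SE 0.43, adjusted p = 0.567). Gadd45g has no row on the opposite strand. The call was lost without control 2, control 3, carnitine 2 or carnitine 3 (adjusted p 0.0809 to 0.279, edgeR). It was also lost with the share of counts on rows without an opposite row as a covariate (adjusted p = 0.0782, edgeR). The 6 libraries of these groups alone gave an adjusted p of 0.0565 (edgeR).

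Cebpb, a transcription factor of the STAT3 target list with roles in fat cell formation and inflammation, had 124.8, 103 and 110 CPM in controls, 61.7, 66.8 and 76.9 under the high-fat diet and 44.0, 51.0 and 53.4 with carnitine. The 3 groups did not overlap, in falling order, and this order was not counted over all rows. Carnitine against control gave a log2 value of -1.19 (SE 0.25, adjusted p = 0.0300, edgeR), beside -0.72 (SE 0.25, adjusted p = 0.408) for the diet against control and -0.47 (SE 0.25, adjusted p = 0.461) for carnitine against the diet. The row, with 1902 counts in all, shares 312 bases with Tmem189 on the other strand, which held 13952. Tmem189 had a log2 value of -0.99 (SE 0.24, adjusted p = 0.101, edgeR) for the diet against control, which passed with DESeq2, 0.39 (SE 0.24, adjusted p = 0.524) for carnitine against the diet and -0.60 (SE 0.24, adjusted p = 0.358) for carnitine against control. The Cebpb call was lost without control 1, control 3, carnitine 2 or carnitine 3 (adjusted p 0.0910 to 0.136, edgeR). It was also lost with the same covariate (adjusted p = 0.0573, edgeR) and in the 6 libraries alone (adjusted p = 0.0601, edgeR).

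Of the 9 tested growth hormone and STAT5 targets, 1 was higher and 8 lower with carnitine than in controls, with 1 passing by edgeR and a median log2 fold change of -0.70. In that comparison the median was -0.0047 over all tested rows and -0.60 over the 20 fibre markers. For the diet alone against control, 2 targets were higher and 7 lower (median -0.66). For carnitine against the diet, 2 were higher and 7 lower (median -0.23). Igfbp5, an insulin-like growth factor binding protein gene named after its values were seen, was at 31.5 ± 8.36, 20.1 ± 6.87 and 11.7 ± 1.14 CPM (SD, n = 3 each) in control, high-fat diet and carnitine. Its log2 value for carnitine against control was -1.43 (SE 0.38), with an adjusted p of 0.117 by edgeR and 0.0301 by DESeq2. Of the 10 tested STAT3 targets, 5 were higher and 5 lower, with 1 passing by edgeR. The 3 tested interferon targets had values above 0 and 0 passed. Psmb9, an immunoproteasome subunit gene, had 1.65 (SE 0.98, adjusted p = 0.587, edgeR) for carnitine against control, and B2m, the light chain of MHC class I, had 0.69 (SE 0.66, adjusted p = 0.719) for carnitine against the diet.

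**Figure D5:**
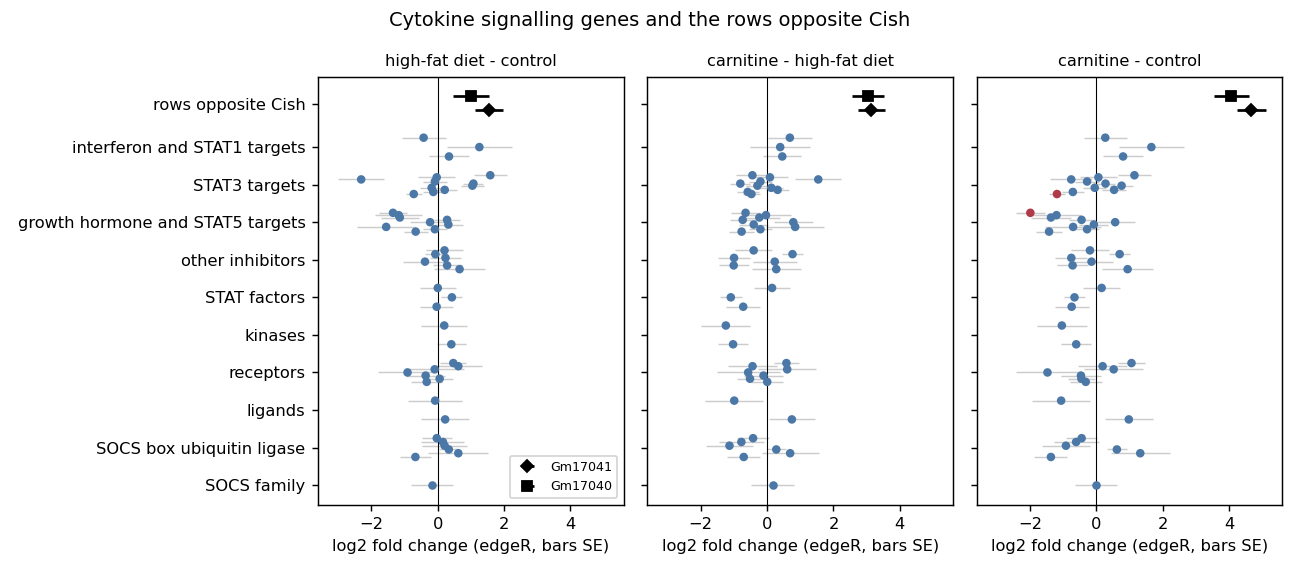
Log2 fold changes (points, bars SE, edgeR) of the tested cytokine signalling genes by list in the 3 comparisons, red where the adjusted p was below 0.05, with Gm17041 (diamond) and Gm17040 (square) at the top. Gadd45g and Cebpb are the red points, in carnitine against control, and both rows opposite Cish lie to the right of every listed gene in the carnitine comparisons.

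The rows opposite the listed genes were compared too. Of the 124 listed genes in the table, 43 share exon sequence with an opposite row, and in 33 of these the opposite row held more counts. Leaving out the rows opposite Cish, 32 opposite rows were tested. By edgeR they gave 0 calls for the diet (5 at an unadjusted p below 0.05), 0 for carnitine against the diet (6) and 1 for carnitine against control (5). Over all 7523 rows 0.0532%, 0.0532% and 0.425% were called, and 475, 904 and 780 had an unadjusted p below 0.05. DESeq2 gave 2, 1 and 3 calls beside 39, 68 and 75 over all rows of the table, with no adjusted p for 8, 17 and 5 of the 32. The calls of limma-voom were 0 in each. The row called by edgeR is Gm20496, which shares 498 bases with the immunoproteasome gene Psmb8. It had 36.1, 41.1 and 29.3 CPM in controls, 41.8, 55.0 and 23.8 under the high-fat diet and 81.5, 104 and 77.9 with carnitine. The carnitine libraries were above all others, which held for 2.99% of all tested rows. The log2 difference was 1.31 (SE 0.30, adjusted p = 0.0462, edgeR) from control and 1.12 (SE 0.30, adjusted p = 0.199) from the diet. It passed with DESeq2 and not with limma-voom. The call against control held without carnitine 1 and was lost without any of the other 5 libraries compared (adjusted p 0.0741 to 0.345). It was also lost with the share of counts on rows without an opposite row as a covariate (adjusted p = 0.135, edgeR). The 6 libraries of these groups alone gave an adjusted p of 0.0576 (edgeR).

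Markers of other cell types had far lower sums than those of muscle fibres. Myeloid markers summed to 71.5 to 131 CPM in controls, 88.0 to 117 CPM with the high-fat diet and 111 to 114 CPM with carnitine, with Adgre1 and Itgam not detected. Nearly all of this sum was Csf1r, with 2462 counts in the 9 libraries, while Lyz2 had 29, Cd68 15 and Ptprc 2. Adipocyte markers summed to 0.730 to 20.6, 1.11 to 3.25 and 0 to 3.85 CPM in the same order, with Lep not detected. Endothelial markers summed to 35.8 to 50.01, 49.8 to 91.7 and 36.5 to 179 CPM in that order, so that they were highest in a carnitine library and overlapped between groups. Fibroblast markers summed to 15.1 to 32.8, 10.03 to 34.1 and 15.4 to 16.3 CPM, smooth muscle markers to 49.98 to 60.2, 37.6 to 58.2 and 43.7 to 78.9 CPM and erythroid markers to 8.22 to 14.6, 3.55 to 6.27 and 3.85 to 15.4 CPM. Schwann cell markers summed to 3.29 to 44.0, 1.86 to 19.3 and 0.962 to 6.83 CPM, and satellite cell markers to 0 to 1.10, 0 to 2.55 and 0 to 1.71 CPM. In these 5 lists the groups overlapped, except that the erythroid sums of the high-fat diet were all below those of controls. Their part in the values of the Cish locus was not tested.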

How the data were processed

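Muscle messenger RNA of 9 libraries in 3 groups was analysed. The authors deposited raw counts per gene as whole numbers, and FPKM values, with coordinates that are those of GRCm39. The submitters' processing notes list HTSeq 0.13.5, HISAT2 2.2.0, Bowtie2 2.4.2, edgeR and Trim Galore 0.6.4, with no role for each. FPKM was used only to set genes side by side.

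Differences were fitted on the counts in R 4.3.3 by edgeR 4.0.16 (robust quasi-likelihood F-test, TMM, default expression filter). All 9 libraries entered 1 fit with 3 groups, with Benjamini-Hochberg adjustment over 7523 rows. SE is the log2 fold change over the square root of F. The fit was tested on simulated data. Alternatives used DESeq2 1.42.0 and limma 3.58.1. Rows that failed the filter, among them Cish, Socs2 and Socs3, were not tested, and likeness was not computed for Socs2 and Socs3.

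The members and lists were chosen with earlier results of these data known. Named were the members, the SOCS family, tested rows within 250 kb of Cish, listed genes that passed (or else the smallest p in each comparison), and the 5 rows most correlated with Gm17041 (log2 CPM, prior count 2). Opposite-strand rows came from the table's spans and from exons of GENCODE M21. A list of lymphocyte markers is not reported here.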

Additional observations from a re-analysis of the deposited data

How the results depend on the processing

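Over 15 or 16 alternatives, Gm17041 and Gm17040 kept a positive log2 fold change in all 3 comparisons. For Gm17041 on the diet against control it was 1.54 without the filter (adjusted p = 0.000378), 1.54 in the 6 libraries alone (adjusted p = 0.0433) and 1.52 with DESeq2 (adjusted p = 0.0270), and passed in these fits only. Leaving out 1 library gave 1.11 to 1.74 for Gm17041 and 0.56 to 1.31 for Gm17040 in that comparison, 2.71 to 3.56 and 2.32 to 3.50 for carnitine against the diet, and 4.27 to 5.05 and 3.36 to 4.48 for carnitine against control. With the share of counts on rows without an opposite row as a covariate, Gm17040 was 2.04 for carnitine against the diet, and the cause was not tested.

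The number of rows called moved with the setting. For the diet against control it was 4, and 0 with library totals only, 68 without the filter, 40 with a filter on CPM, 8 with the covariate, 40 in the 6 libraries, 8 with limma-voom, 39 with DESeq2 and 0 to 13 without 1 library (13, 0 and 1 without control 1, 2 and 3, and 1, 2 and 0 without high-fat diet 1, 2 and 3). For carnitine against the diet it was 4, and 10 with library totals only, 26 without the filter, 10 with a filter on CPM, 0 with the covariate, 0 in the 6 libraries, 68 with DESeq2 and 1 to 84 without 1 library (1 without high-fat diet 1, 9 without high-fat diet 3, 84 without carnitine 1 and 1 without carnitine 2). For carnitine against control it was 32, and 18 with library totals only, 60 without the filter, 16 with the covariate, 10 in the 6 libraries, 21 with limma-voom, 75 with DESeq2 and 5 to 86 without 1 library (12 without control 1, 7 without control 3, and 86, 5 and 13 without carnitine 1, 2 and 3). Of 15 alternatives for carnitine against control, Cebpb passed in 9, Gadd45g in 7 and Gm20496 in 6.

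Same-numbered libraries deviated from their group means with correlations of -0.164 to 0.142, and differently numbered ones with -0.154 to 0.187. With 3 libraries a group, these ranges cannot decide whether the numbers pair the libraries. With the replicate number as a block, 10, 3 and 31 rows were called in the 3 comparisons, and Gm17041 was 1.43 (adjusted p = 0.0623), 3.06 and 4.49, Gm17040 0.90, 2.90 and 3.799. Gadd45g then lost its call (adjusted p = 0.0558). Low counts limit Cish, Socs2 and Socs3, whose fits without the filter have SE of 1.04 to 2.04, and the part of depth and of the strand counted in these low counts was not tested. Socs2 and Socs3 could not be fitted under the other settings with a filter.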
